A study of Homo sapiens with 4 samples.

Results

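SRP9 (Ensembl gene ID ENSG00000143742) is the gene that was transfected in this experiment, and it is described here across all 4 libraries. It is 1 ID of the 60676 listed in each library and was found by its ID alone. No measured value entered that rule, but the gene was chosen with earlier results of these data known. The libraries came from MiaPaCa, a human cell line established from pancreatic cancer. The cells had been electroporated with a plasmid for either SRP9 variant 1 or SRP9 variant 2, selected with Geneticin, sorted for the green fluorescent protein of the same plasmid (acGFP1) and cultured for a further 24 hours. Both constructs placed a nuclear localisation signal and 3 copies of the FLAG tag on the SRP9 variant. For each construct, 1 library held the RNA that came down with the tagged SRP9 (RNA immunoprecipitation, RIP) and 1 held RNA of the whole cells from that experiment (input). Every group is thus a single library of sorted transfected cells. No untransfected, empty-vector or mock-precipitated library was analysed here. Whether the construct raised SRP9 RNA above the cells' own level, and how far, thus cannot be read from these data.

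SRP9 encodes one of the smallest proteins in the signal recognition particle, the complex of proteins and the 7SL RNA that recognises signal peptides on ribosomes and brings the ribosomes to the endoplasmic reticulum. Together with SRP14 it binds the Alu domain of that RNA, the part that slows translation while the ribosome is delivered. The series placed the 2 variants in the nucleus to examine what they do there, and the tagged protein was the bait. The values below are about the SRP9 RNA, not about the bait protein or the RNAs it is known to bind.

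The count of SRP9 is a sum over all reads assigned to 1 gene ID. It does not separate variant 1 from variant 2, or the plasmid's transcript from that of the cells' own gene, and whether the synthesised coding sequence matches the genome was not given in the sources used here. In the RefSeq gene table (GRCh38.p14), SRP9 is a protein-coding gene on chromosome 1 with 2 transcripts and 2 proteins. The table lists 0 other genes that overlap it and 1 copy, the pseudogene SRP9P1 on chromosome 10. Reads shared with SRP9P1, or with a further copy outside that table, could have been divided or lost. The SRP9 values of RIP variant 2 and of the input of variant 1 end in 0.5, as arises when a read is divided, and no other ID has the same 4 values as SRP9. Of the 59792 genes in that table, 0 carry an Ensembl ID. For this reason the other SRP proteins, the SRP receptor, the 7SL RNAs, the translocon genes, SRP9P1 and the cell type markers could not be given beside SRP9, and the cell type was not checked against markers.

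SRP9 RNA was well represented in whole-cell RNA and scarce in the precipitates. Its count was 10 in RIP variant 1, 93.5 in RIP variant 2, 4323.5 in the input of variant 1 and 6628 in the input of variant 2. The library totals behind these counts were 3921361 and 5211354 counts for RIP variants 1 and 2, and 50454080 and 58815384 for their inputs. The totals differ in make-up between the fractions. IDs with a count numbered 44658 and 51589 in RIP variants 1 and 2, against 28372 and 26720 in their inputs. IDs with 50 or more counts in each input held 63.0% and 61.9% of the RIP counts, and 99.4% of the counts of each input. Relative to the totals, SRP9 stood at 2.55 CPM (counts scaled to a common library total) in RIP variant 1, with a 95% exact Poisson interval from 1.22 to 4.69. In RIP variant 2 it stood at 17.9 CPM (14.5 to 22.0). In the input of variant 1 it stood at 85.7 CPM (83.2 to 88.3), and in the input of variant 2 at 112.7 CPM (110.0 to 115.4). The order from the lowest to the highest was thus RIP variant 1, RIP variant 2, input of variant 1, input of variant 2, and no interval overlapped that of its neighbour. These intervals are for counting error only and take each read as independent. Reads of amplified libraries are not independent molecules, so the intervals may be too narrow. They also leave out the spread that replicate libraries would show. In bulk RNA, fewer cells carrying a transcript and less of it per cell cannot be told apart.

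**Figure D1:**
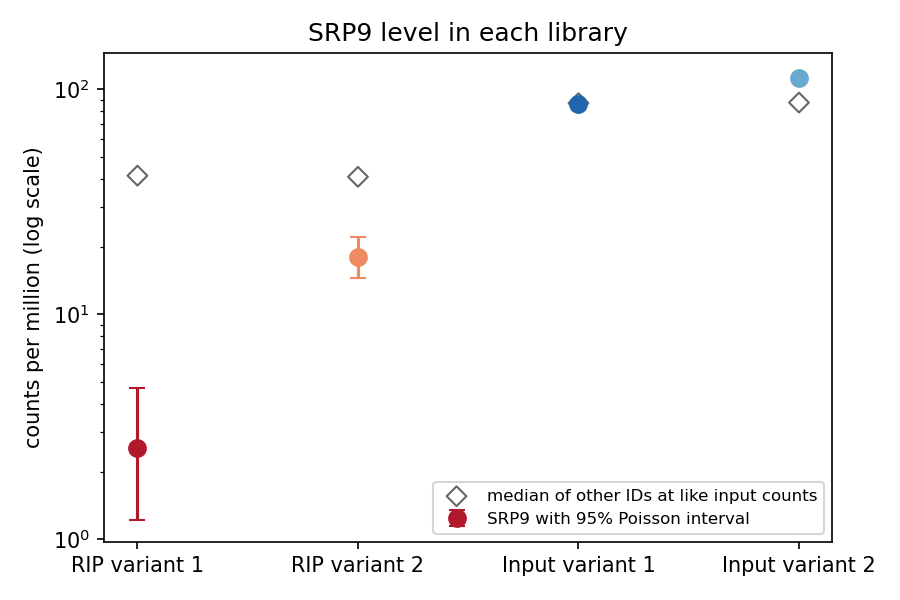
Level of SRP9 in CPM (log axis) in each of the 4 libraries, as filled circles with 95% exact Poisson intervals, which are narrower than the symbols in the inputs. Open diamonds are the median CPM of the 2604 other tested IDs whose counts were within 2-fold of those of SRP9 in both inputs, and SRP9 lies below the diamond in both RIP libraries.

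SRP9 was lower in RIP than in input when both constructs were fitted jointly. The test was edgeR's quasi-likelihood test across 41622 IDs that passed a filter on low counts. The constructs were the 2 samples of each fraction. TMM scaling was used, which sets library sizes from a trimmed, weighted mean of log ratios between libraries. The log2 fold change of RIP over input was -4.42 (SE 0.80, Benjamini-Hochberg adjusted p = 0.0058 from edgeR), and SRP9 was below its input with both constructs. Lower calls at an adjusted p under 0.05 were made for 15.8% of the tested IDs and higher calls for 49.5%. These shares moved with the fit. On library totals the lower calls were 7.72% of the tested IDs, and with the construct as a block the higher calls were 19.9%. Without RIP variant 1 the higher calls numbered 938 and without RIP variant 2 they numbered 1082, against 20595 with all 4 libraries. The median log2 fold change of all tested IDs was 3.65, so after TMM scaling the bulk of the IDs was not level between the fractions. The median counts of the other IDs were 45.5 and 63 in RIP variants 1 and 2 and 17.5 and 16 in their inputs. SRP9 was at the lower end, with 510 of the 41621 other IDs (1.23%) at or below its value. Many of the 41621 other IDs had few input counts, which limits how far below input they can be measured. The rank of SRP9 thus depends partly on input count. Among the 15449 other IDs with 50 or more counts in each input, 420 (2.72%) were at or below SRP9. The constructs are not replicates, so this p-value measures the spread between these libraries, which may be technical.

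The size of the SRP9 change depended on the library and on the scaling. Its direction stayed the same without each library in turn and under each scaling run. Without RIP variant 1 the log2 fold change was -3.67 (edgeR adjusted p = 0.0060), and without RIP variant 2 it was -6.43 (edgeR adjusted p = 0.0044). With library totals for scaling, it was -3.21 (edgeR adjusted p = 0.015). A fit of only the 15450 IDs that had 50 or more counts in each input, with TMM factors of their own, gave -3.30 (edgeR adjusted p = 0.010).

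Most genes with as many input counts as SRP9 were also lower in RIP, so the call by itself does not set SRP9 apart. The comparison set was the IDs with counts within 2-fold of those of SRP9 in both inputs, that is 2162 to 8647 counts with variant 1 and 3314 to 13256 with variant 2. Of these 2605 IDs, SRP9 included, 95.4% were called lower in RIP and 0.230% higher on TMM scaling. On library totals, where SRP9 was also called, 58.2% were called lower. The median log2 fold change of the 2604 others was -2.35, against -4.42 for SRP9, and 51 of them (1.96%) were at or below SRP9. By the size of its reduction SRP9 was thus in the lower tail of this set. Counts here are per ID and not per transcript length, so like counts do not mean like numbers of molecules.

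Each construct was then set against its own input, which has no test because each side is 1 library. With variant 1, TMM-scaled SRP9 was 1.70 CPM in RIP and 129.8 CPM in input, 76.1-fold lower in RIP (95% exact Clopper-Pearson interval of the counts 41.4 to 159). With variant 2 it was 11.9 CPM in RIP and 168 CPM in input, 14.2-fold lower (11.5 to 17.4). On library totals the reductions were 33.6-fold (18.3 to 70.1) and 6.28-fold (5.10 to 7.74), so the size depends on scaling but the order of the constructs does not. A reduction of at least 2-fold was present for 23.3% of all tested IDs with variant 1 and 21.4% with variant 2. At like input counts it was present for 90.5% and 93.2%. These shares are on TMM scaling. On library totals they were 14.5% and 11.9% of all tested IDs, and 56.0% and 57.2% at like input counts.

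Ranks within a construct do not change with the scaling of the libraries, and they placed SRP9 lower with variant 1 than with variant 2. With variant 1, 21 of the 2604 other IDs at like input counts (0.806%) had a ratio of RIP to input at or below that of SRP9. Their median log2 ratio was -2.33 and that of SRP9 -6.25, so SRP9 was 15.2-fold below the median. With variant 2, 166 IDs (6.37%) were at or below SRP9, which had a log2 ratio of -3.82 against a median of -2.36, or 2.76-fold below it. SRP9 was thus below the median with both constructs, and further below it with variant 1. The 5th percentile of the other IDs was -4.50 with variant 1 and -3.92 with variant 2. SRP9 lay below it with variant 1 only, where its count was 10. With input counts within 1.5-fold of SRP9, a set chosen after the data were seen, 10 of 1237 IDs (0.808%) were at or below SRP9 with variant 1 and 74 (5.98%) with variant 2. Within 4-fold, 54 of 5817 (0.928%) and 355 (6.10%) were.

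**Figure D2:**
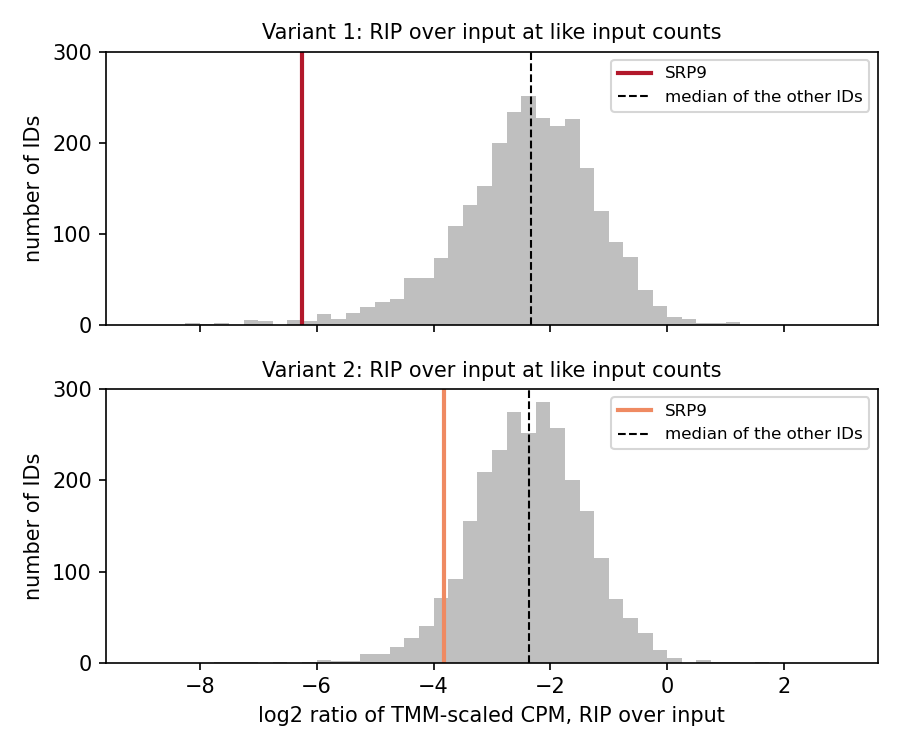
Number of IDs (vertical axis) by the log2 ratio of TMM-scaled CPM in RIP over input (horizontal axis). The IDs are the 2604 others at like input counts, with variant 1 above and variant 2 below. The 1 ID at 0 in each RIP library is not drawn. Values outside the drawn range are also left out, such as ENSG00000128245 at -9.39 with variant 1. The coloured line is SRP9, at -6.25 and -3.82, and the dashed line is the median of the other IDs, at -2.33 and -2.36.

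Raw counts of SRP9 in the precipitates were also below the median with both constructs. They are the numerators of the ratios above, so they are not separate evidence, and they do not adjust for input count. At like input counts the other IDs had a median of 162 counts in RIP variant 1, with 34 and 460 as the 5th and 95th percentiles. SRP9 had 10, and 24 of the 2604 IDs had 10 or fewer. In RIP variant 2 the median was 212.8 counts, with 69 and 557.8 as the 5th and 95th percentiles. SRP9 had 93.5 there, and 270 IDs (10.4%) had as few or fewer. Both at once, a count at or below that of SRP9 in each precipitate, held for 17 of the 2604 IDs.

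Between the constructs, SRP9 differed mainly in the precipitates. SRP9 was 6.97-fold lower in RIP variant 1 than in RIP variant 2 on TMM scaling (95% exact Clopper-Pearson interval 3.64 to 15.1), and 7.04-fold lower on library totals. If both reads of each fragment were counted, the 10 reads stand for fewer fragments and the interval widens to between 2.80-fold and 22.6-fold. A level at least 2-fold lower with variant 1 was found in the precipitates for 23.2% of all tested IDs and 11.8% of those at like input counts, and one at least 2-fold higher for 19.1% and 8.48%. A difference as low as that of SRP9, with a log2 ratio of -2.80, was rarer, at 24 of the 2604 other IDs at like input counts (0.922%), while 3 IDs were as far apart in the other direction. Among all tested IDs, 7.03% of the 41448 others with a ratio were at or below SRP9. With 1 precipitate per construct, a difference between variants and a difference between 2 precipitates cannot be told apart.

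In whole-cell RNA the constructs differed far less. SRP9 was 1.29-fold lower in the input of variant 1 than in that of variant 2 on TMM scaling (95% exact Clopper-Pearson interval 1.25 to 1.35) and 1.32-fold lower on library totals (1.27 to 1.37). The interval lies away from equality because the counts are high, and it does not cover variation between cultures. Among the IDs at like input counts, 158 of 2604 (6.07%) had a log2 ratio at or below the -0.37 of SRP9, and 239 (9.18%) were as far from 0 in either direction. SRP9 did not reach a 2-fold difference between the inputs, which 12.9% of all tested IDs did in this direction, and 0.115% at like input counts. Of the 41621 other tested IDs, 28809 had a ratio between the inputs. The rest, with no counts in either input, are in the base of the 12.9%.

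**Figure D3:**
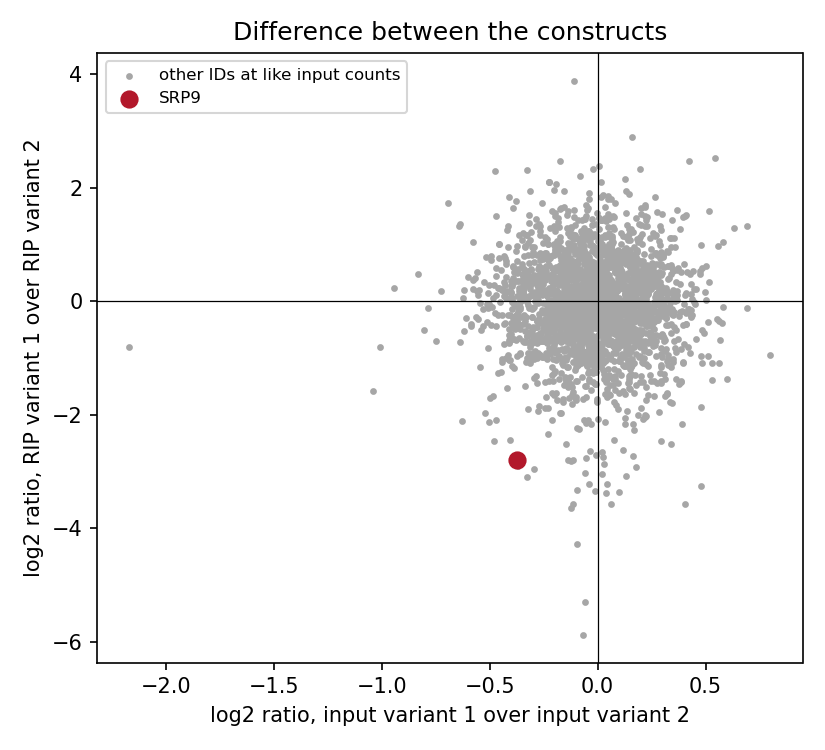
Log2 ratio of TMM-scaled CPM between the constructs in the inputs (horizontal axis) and in the precipitates (vertical axis), variant 1 over variant 2. Each grey point is 1 other ID at like input counts with a count in both precipitates, and SRP9 (red) lies at -0.37 and -2.80.

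Taking each input into account, the reduction of SRP9 in RIP was 5.38-fold stronger with variant 1 than with variant 2, a difference of -2.43 on the log2 scale. The conditional exact interval of the odds ratio of the 4 counts ran from 2.81-fold to 11.7-fold, for counting error only. On library totals this difference was 5.35-fold. It was not tested, since each cell of the design is 1 library. Of the other IDs at like input counts, 38 of 2604 (1.46%) had a difference at or below that of SRP9, and their median difference was 0.01 on the log2 scale.

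The order of the libraries found for SRP9 was not rare. With CPM on library totals, the sequence from RIP variant 1 through RIP variant 2 and the input of variant 1 to the input of variant 2, all rising, was present for 640 of the 2604 other IDs at like input counts (24.6%). It was present for 1736 of the 41621 other tested IDs (4.17%).

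Other genes resembled SRP9 in their pattern over the 4 libraries, mainly in the low RIP variant 1 and the high inputs. Likeness was the Euclidean distance between profiles of log2 TMM-scaled CPM after each ID's own mean over the 4 libraries was removed, so that it compares the pattern and not the level. Among 10196 IDs with at least 50 counts in every library the median distance to SRP9 was 4.56, and the 5 nearest lay between 0.72 and 1.05. The nearest, ENSG00000169715, had 55.5 and 398 counts in RIP variants 1 and 2 and 18912 and 17910 counts in their inputs. SRP9 itself does not reach this minimum, with 10 counts in RIP variant 1. With at least 10 counts in every library, a minimum chosen after the data were seen, there were 16042 IDs, and 33 lay within a distance of 1. The nearest 5 lay between 0.37 and 0.54. The nearest was ENSG00000155760, with 10 and 74 counts in RIP variants 1 and 2 and 3079 and 5093 in their inputs. Its log2 ratios of RIP to input were -5.76 with variant 1 and -3.78 with variant 2, against -6.25 and -3.82 for SRP9. The order of the inputs was not shared by all: 3 of the 5 nearest IDs in the first set, ENSG00000169715 among them, and 2 of the 5 in the second were higher in the input of variant 1, where SRP9 was lower. The files do not pair these IDs with gene names. With 4 libraries a profile has few ways to vary, and likeness here is a description.

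**Figure D4:**
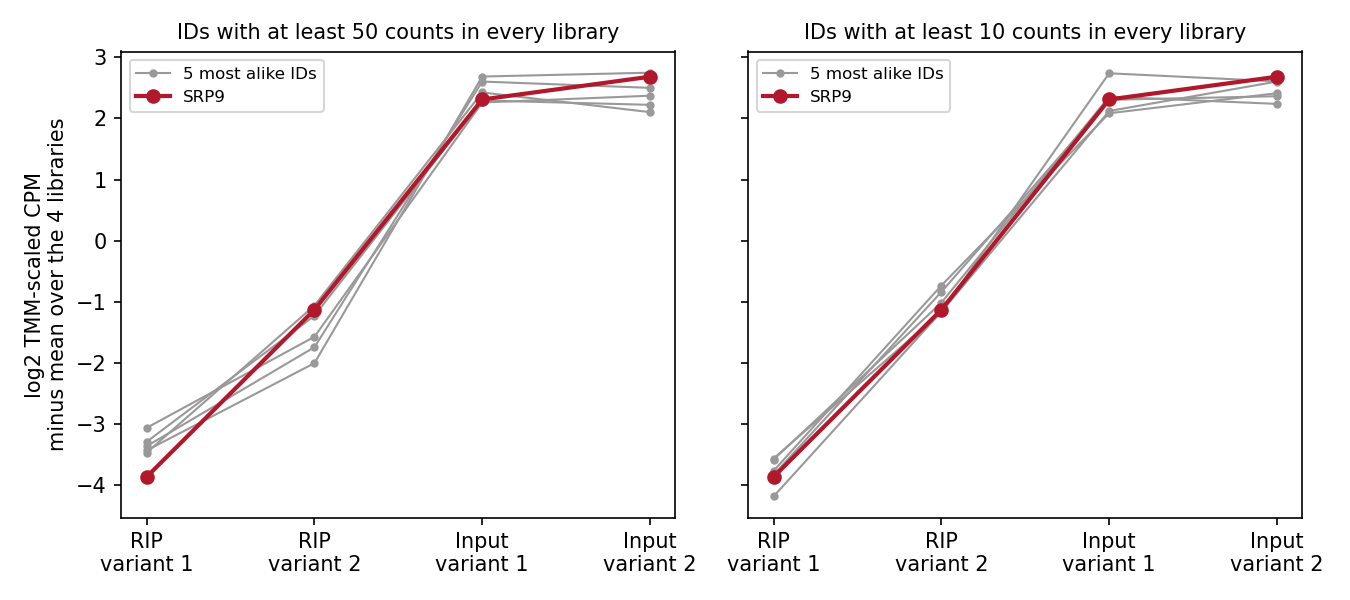
Log2 TMM-scaled CPM minus the mean over the 4 libraries (vertical axis) in each library (horizontal axis) for SRP9 (red) and the 5 IDs nearest to it (grey), among IDs with at least 50 counts in every library on the left and at least 10 on the right. SRP9 lies below all 5 grey lines in RIP variant 1 on the left and among them on the right.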

How the data were processed

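SRP9 was read from 4 gene-level tables, 1 per library. Their values are estimated counts per Ensembl ID, deposited by the authors without scaling to a common total, and 13.9% to 18.0% of the values per library are not whole numbers. HISAT2 2.1.0, featureCounts, Subread 2.0.0 and the build GRCh38.p13 are named, per the submitters' processing notes. How fragments, strands and multi-mapping reads were counted, and with which annotation release, was not given in the sources used here.

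Values were rounded to whole counts for the tests. All IDs were fitted with edgeR 4.0.16 (R 4.3.3), after filterByExpr by fraction with a minimum count of 10 and TMM scaling, with 2 residual degrees of freedom. The SE is the fold change divided by the root of the F statistic. The script was tested on simulated data. Alternatives used DESeq2 1.42.0 and limma 3.58.1. Ratios of single libraries use deposited values and no prior count. Likeness uses a prior count of 2.

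Per the labels, RIP and input of a construct come from 1 experiment, so the paired alternative blocks on the construct. The difference between the RIP libraries and that between the inputs had a correlation of -0.0026 over the tested IDs. The named IDs are SRP9 and those most like it by the distance described, of which the nearest of each set is printed. The gene and the choices were made with earlier results of these data known. No sequence of the constructs was used here.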

Additional observations from a re-analysis of the deposited data

How the results depend on the processing

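SRP9 was lower in RIP, at an adjusted p under 0.05, under each alternative run: DESeq2 size factors, library totals, no filter, a fit of only the IDs with 50 or more counts in each input, the DESeq2 Wald test, limma-voom, unrounded values, the replicate block and each library left out. The log2 fold change ranged from -6.43 to -3.67 when a library was left out, with the lone library assumed to vary like the other fraction. With the construct as replicate block it was -4.86 (edgeR adjusted p = 0.00090), and pairing thus changed no call for SRP9. Adjusted p over the alternatives lay between 4.9e-06 (DESeq2) and 0.033 (limma-voom).

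Higher calls over all IDs numbered 20595 and fell to 8289 with the replicate block and 3421 in the fit of IDs with 50 or more counts in each input. They lay between 938 and 18394 with a library left out, with 938 without RIP variant 1 and 1082 without RIP variant 2. Lower calls numbered 6583 and fell to 3213 on library totals and 3658 for the latter IDs alone, and lay between 5275 and 6452 with a library left out. The fit of IDs with 50 or more counts in each input tests fewer IDs, and the cause of the other changes was not tested.

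The log2 ratio of RIP over input moved beyond its counting interval with scaling. For variant 1 it was -6.25, and -5.07 on library totals or -5.13 with TMM factors from the IDs with 50 or more counts in each input. For variant 2 it was -3.82, and -3.49, -2.65 and -2.71 with DESeq2 size factors, library totals and that TMM. On TMM sizes the SRP9 level was 11.9 CPM in RIP variant 2, 129.8 CPM in input variant 1 and 168 CPM in input variant 2, while on the total of those IDs it was 29.0 CPM in RIP variant 2. The list of SRP pathway genes was not run, because no table names the IDs. The 10 counts in RIP variant 1 limit every value that rests on that library.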
